A study of Mus musculus with 2 samples.

Results

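DNA damage signalling and repair genes were compared between mouse embryonic fibroblasts (MEFs) with and without Bmi1, a Polycomb protein that stimulates the ubiquitylation of histone H2A. The group was a list of 55 genes listed by their known role in damage signalling or in one of the repair pathways. Of these genes, 53 had a probe set annotated to them alone, and 49 had a signal above the floor of 100 units on at least 1 array. On the whole array there were 18195 such genes, of which 11766 were measured. Probe sets for Rbbp8 and Xrcc2 were not analysed here, and Bard1, Rad51c, Rad54b and Mgmt were below the floor on both arrays.

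Both cell lines were derived from C57BL/6 embryos that the labels give as male, littermates according to the methods, and both carried the TBX2 construct that immortalised them. The groups were 1 line wild-type for Bmi1 and 1 line null for it, each untreated, grown in the same serum-containing medium and represented by 1 array, with no replicate. A difference below is therefore between 2 arrays, no test was possible, and an effect of genotype cannot be told apart from one of line, culture or array. Values are MAS5 signals, a summary of perfectly matched against mismatched probes of 1 probe set in arbitrary units, and ratios are null over wild-type.

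Cells detect broken or stalled DNA through the kinases Atm and Atr, which signal to the checkpoint kinases Chek1 and Chek2 and to chromatin around the lesion. Breaks are then rejoined directly by end joining or copied from the sister chromatid by homologous recombination, whereas altered bases, bulky adducts, mispairs and crosslinks each have an excision or Fanconi pathway of their own. Translesion polymerases let replication pass a lesion that is still in place. Bmi1 itself is known to gather at DNA breaks, and many recombination genes are known to be transcribed mainly as cells enter and pass through S phase.

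The arrays were checked first. At its brighter probe set Bmi1 read 9933 on the wild-type and 2146 on the null array, 4.63-fold lower, but 931 and 831 at its other one. Although both lines are labelled male, the Y-linked genes Eif2s3y, Uty and Kdm5d were below the floor on the null array alone at their brightest probe sets, at least 7.12-fold to 16.8-fold lower. Another Uty probe set was at least 3.55-fold lower. The fibroblast genes Col1a1 and Vim read 6860 and 19519 in wild-type cells and 14841 and 19233 in null cells. At its other probe set Col1a1 was 3.65-fold higher in null cells, and Col3a1 was 4.38-fold and 22.7-fold higher. Col1a2 read 15048 and 17030 at its brightest probe set (2.56-fold higher at another), Pdgfrb 6816 and 6951, and Thy1 375 and 50.7. The leukocyte gene Ptprc and the endothelial gene Pecam1 were below the floor on both arrays. The epithelial gene Epcam read 149 and 834 at 1 probe set and was below the floor at the other. Across 9 probe sets of the added bacterial and phage control transcripts, null over wild-type ratios ran from 0.89 to 1.06, and the 3' to 5' ratio of beta-actin was 1.20 and 1.15.

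Most repair genes differed little between the lines. Of the 49 measured members, 42 differed less than 1.5-fold, and the largest differences were 2.17-fold higher (the uracil glycosylase Ung) and 1.74-fold lower (the damaged-DNA sensor Ddb2) in null cells. At least 2-fold higher signal was found for 2 members (4.08%), beside 5.73% of all measured genes, and at least 2-fold lower signal for 0 members, beside 5.16%. At 1.5-fold, 4 members (8.16%) were higher, beside 12.5% of all measured genes, and 3 (6.12%) were lower, beside 12%. The median log2 ratio was 0.059 for the members and 0.006 for all measured genes. Ratios above 0 were found for 28 members (57.1%), beside 50.6% of all genes.

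The spread of the members was also narrow. The central 50% of their log2 ratios lay between −0.088 and 0.30, and those of all measured genes between −0.29 and 0.30. Signals of the members ranged from 96.4 to 5572 in wild-type cells (median 360) and from 130 to 5734 in null cells (median 378), and 44 of the 49 stayed below 1000 on both arrays. The only precision that 2 arrays allow comes from the spread between probe sets of the same gene. Over 4591 genes, the brightest pair of probe sets, each above the floor on both arrays, gave an SD of 0.29 for 1 log2 ratio (the SD of their differences over the square root of 2). It was 0.31 for the 602 pairs whose highest signal lay between 100 and 500, and it covers probe set error only.

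**Figure D1:**
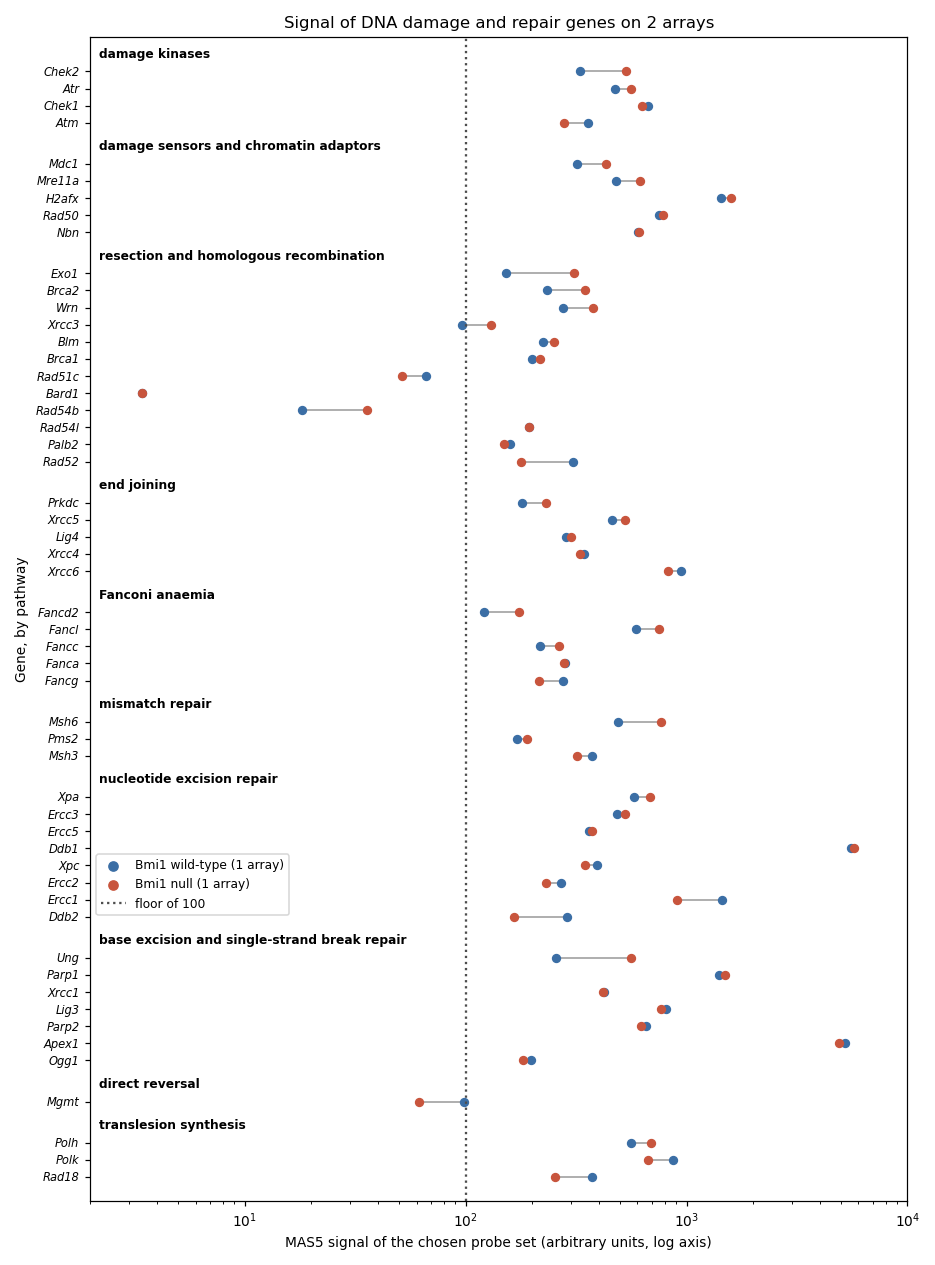
MAS5 signal (x axis, log scale, arbitrary units) of the chosen probe set of each of the 53 members on the array (y axis, by pathway), with 1 blue point for the Bmi1 wild-type array, 1 red point for the null array and a dotted line at the floor of 100. Points of most genes nearly overlap, the red point lies to the right for Ung, Exo1, Chek2 and Msh6, and it lies to the left for Ddb2, Rad52 and Ercc1.

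Among the damage kinases, 1 of 4 genes, Chek2, passed 1.5-fold upward and none downward, beside 12.5% upward and 12% downward of all measured genes. Chek2, the checkpoint kinase that Atm activates after breaks, read 328 on the wild-type and 535 on the null array, 1.63-fold higher. Chek1, the checkpoint kinase that Atr activates at stalled forks, read 669 and 630, and its other measured probe sets were 1.12-fold and 1.22-fold lower. Atm, the kinase that answers breaks, read 357 and 279, 1.28-fold lower, and 1.21-fold lower at its other probe set. Atr, which answers single-stranded DNA at forks, read 474 and 562. The order of null over wild-type was thus Chek2, Atr, Chek1 and Atm. That order is not firm, because the SD of 0.29 between probe sets is for 1 ratio. A gap between 2 genes carries the error of both.

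The sensors of breaks and the chromatin factors around them were all slightly above equality. All 5 measured genes had a log2 ratio above 0, beside 50.6% of all measured genes (median 0.15). None reached 1.5-fold, beside 12.5% upward and 12% downward of all measured genes. The log2 ratios of Nbn (0.015), Rad50 (0.059) and H2afx (0.15) lay inside the SD of 0.29 between probe sets. Mdc1, the adaptor that binds phosphorylated H2AX, read 320 and 430, 1.34-fold higher. Mre11a, the nuclease of the complex that first holds a broken end, read 481 and 616, 1.28-fold higher, while its partners Rad50 (750 and 781) and Nbn (605 and 611) were nearly equal. H2afx, the histone variant itself, annotated on the array as H2ax, read 1431 and 1591.

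Homologous recombination held both a gene past 2-fold upward and one of the lowest ratios. Of 14 listed genes 9 were measured, with a median log2 ratio of 0.16. In each direction 1 gene passed 1.5-fold, beside 12.5% upward and 12% downward of all measured genes. Exo1, the nuclease that resects broken ends, read 152 and 311, 2.05-fold higher, but 102 and 112 at another probe set (1.10-fold). Brca2, which loads the recombinase onto resected DNA, read 233 and 348, 1.49-fold higher and just inside the 1.5-fold limit. The helicases Wrn (276 and 378) and Blm (224 and 251) and the scaffold Brca1 (200 and 217) were higher by 1.37-fold, 1.12-fold and 1.09-fold. Xrcc3, a relative of the recombinase, was below the floor in wild-type cells and at least 1.30-fold higher (96.4 and 130).

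On the other side of recombination, Rad52, the annealing factor, read 306 and 178, 1.72-fold lower. Its other probe set read 256 and 186, 1.38-fold lower, so the direction was shared. Palb2, the bridge between Brca1 and Brca2, read 159 and 149, and the strand exchange motor Rad54l 195 and 193. Signals of the unmeasured genes were 66.0 and 51.7 for Rad51c, 18.2 and 35.8 for Rad54b and 3.42 and 3.45 for Bard1, and no ratio is given for them. Absence of the Bard1 transcript cannot be read from 1 dim probe set.

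End joining genes were close to equal. None of the 5 measured reached 1.5-fold, beside 12.5% upward and 12% downward of all measured genes (median log2 ratio 0.075). Prkdc, the kinase held at broken ends, had the highest ratio (180 and 232, 1.29-fold). Xrcc6, which with Xrcc5 forms the Ku ring around the end, had the lowest (945 and 821, 1.15-fold lower), while Xrcc5 itself read 458 and 525. The ligase Lig4 read 286 and 301 and its partner Xrcc4 344 and 331. At its other probe set Xrcc4 read 282 and 222, 1.27-fold lower.

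Fanconi genes, which unhook crosslinks, gave no member past 1.5-fold among 5, beside 12.5% upward and 12% downward of all measured genes. Their median log2 ratio of 0.30 was the highest of the pathways. It was 0.14 with a higher floor (0.4 in place of 0.2 times the trimmed mean signal of the array), over 4 genes. The 0.30 was the ratio of Fancc at its chosen probe set, and the probe sets of Fancc disagreed in direction. Fancd2, whose ubiquitylation switches the pathway on, read 121 and 175, 1.44-fold higher. Fancl, the ubiquitin ligase that modifies it, read 588 and 753, 1.28-fold higher, and Fanca, a core complex subunit, 281 and 279. Fancg, another core subunit, read 275 and 216, 1.27-fold lower, and was 1.41-fold lower at its other probe set (184 and 130). Fancc could not be placed, since its probe sets read 217 and 266, 29.0 and 157, and 125 and 22.7. The first of these was 1.23-fold higher, the next one higher by 1.57-fold or more and the last lower by 1.25-fold or more.

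In mismatch repair, 1 of 3 genes passed 1.5-fold upward and none downward, beside 12.5% upward and 12% downward of all measured genes. Msh6, the subunit that recognises base mispairs, read 492 and 770, 1.56-fold higher. Msh3, which takes its place for larger loops, read 375 and 319, 1.18-fold lower. Pms2, the endonuclease of the pathway, read 171 and 190 at the chosen probe set and 179 and 151 at another, so its direction was not shared. The median log2 ratio of these 3 genes was 0.15, and −0.045 with the mean of probe sets.

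Nucleotide excision repair, which removes bulky adducts and ultraviolet photoproducts, contained both other members past 1.5-fold on the lower side. None of its 8 genes passed 1.5-fold upward (beside 12.5% of all measured genes) and 2 did so downward (beside 12%). The median log2 ratio was −0.071, but 0.012 with the mean of probe sets and 0.041 without probe sets of suffixed names (_s_at, _x_at or _a_at). Ddb2 read 288 and 165, 1.74-fold lower, but its other probe set read 199 and 202. Ercc1, a subunit of the nuclease that cuts beside the lesion, read 1440 and 902 at its brightest probe set, 1.60-fold lower. At another probe set it read 803 and 1251, 1.56-fold higher. Ercc1 was the 1 member with probe sets at least 1.5-fold apart from equality in opposite directions. The other 6 genes lay between 1.18-fold higher (Xpa, the damage verifier, 577 and 683) and 1.17-fold lower (the helicase Ercc2, 271 and 232). Among them the lesion finder Xpc read 394 and 347, the helicase Ercc3 485 and 526, and the nuclease Ercc5 360 and 374. Ddb1, the adaptor that binds Ddb2 and many other substrate receptors, read 5572 and 5734.

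Base excision and single-strand break repair had 1 gene of 7 past 2-fold upward, beside 5.73% of all measured genes. None passed 1.5-fold downward, beside 12%. Ung, the glycosylase that removes uracil from DNA, read 257 on the wild-type and 558 on the null array at its only probe set, 2.17-fold higher. The other 6 genes lay between log2 ratios of −0.13 and 0.089 at their chosen probe sets, so that their signals differed by less than the SD between probe sets. Among them, the glycosylase Ogg1 read 199 and 182, the ligase Lig3 807 and 770, its scaffold Xrcc1 424 and 418, and the poly(ADP-ribose) polymerases Parp1 and Parp2 1399 and 1488, and 657 and 619. Apex1, the nuclease that cuts at abasic sites, read 5196 and 4890 (1.06-fold lower) and was 1.28-fold and 1.30-fold lower at its other probe sets. Parp1 was 1.14-fold and 1.31-fold higher at its other measured probe sets.

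Translesion synthesis had the lowest pathway median (log2 ratio −0.38), over only 3 genes. Rad18, the ubiquitin ligase that marks the sliding clamp PCNA for polymerase exchange, read 373 and 254, 1.47-fold lower. Of its further probe sets, the bright ones were 1.70-fold and 1.35-fold lower, while a dim one read 77.3 and 114. Polk, a polymerase for adducted guanine, read 872 and 672, 1.30-fold lower, and 1.23-fold lower at its other probe set. Polh, the polymerase for ultraviolet dimers, read 563 and 688, 1.22-fold higher, and was 1.13-fold and at least 1.62-fold higher at its other measured probe sets. Direct reversal was represented by Mgmt, the methyltransferase that takes alkyl groups off guanine, which read 98.8 and 61.5 and has no ratio here.

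**Figure D2:**
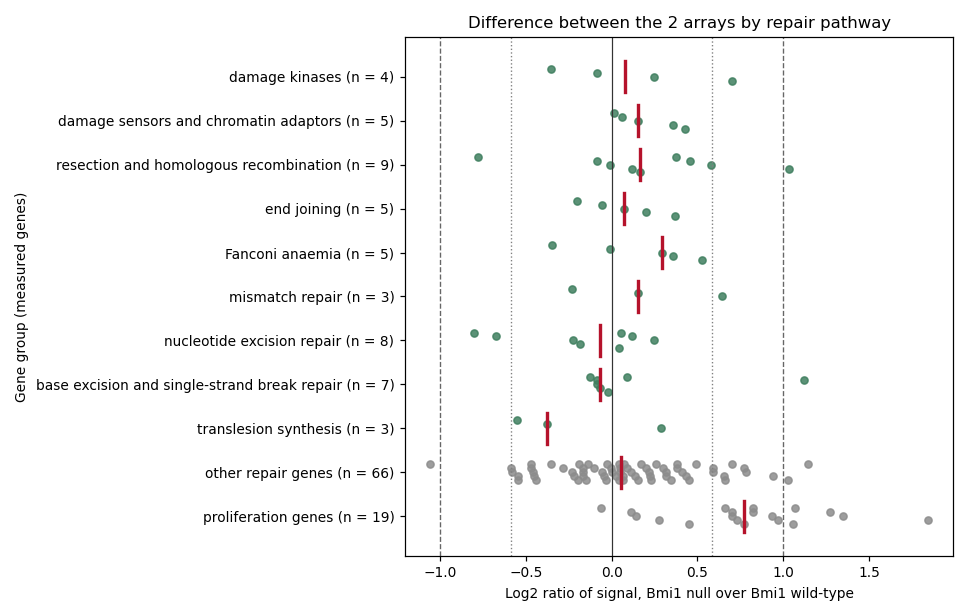
Log2 ratio of signal, null over wild-type (x axis), of each measured gene (points) by group (y axis), with repair members in green, other genes in grey, red bars at group medians, dotted lines at 1.5-fold and dashed lines at 2-fold. Most members lie inside the dotted lines, with Ung and Exo1 beyond the right dashed line, and the proliferation genes are centred at 0.77.

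Agreement between probe sets sets how far these values can be read. Of the 49 measured members, 28 had 1 measured probe set and 21 had several. In 14 of the 21 all measured probe sets had the same sign, and in 7 they did not. Of the 7 members past 1.5-fold, Ung, Chek2 and Msh6 had no second measured probe set, and for the other 4 (Exo1, Rad52, Ddb2 and Ercc1) none of the further probe sets passed 1.5-fold in the same direction. All measured probe sets were lower in null cells for Rad52, Fancg, Polk, Atm, Apex1, Chek1 and Xrcc4, and higher for Exo1, Fancd2, Wrn, Polh, Parp1, Mre11a and Brca1. Signs differed for Ercc1, Fancc, Rad18, Ddb2, Pms2, Lig3 and Ogg1. The median range of log2 ratios within these 21 genes was 0.32. Signs and ranges include ratios that are bounds against the floor, in Brca1, Mre11a, Fancd2, Wrn, Polh, Fancc and Rad18. For Brca1, Mre11a, Fancd2 and Wrn the only other measured probe set gave such a bound.

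**Figure D3:**
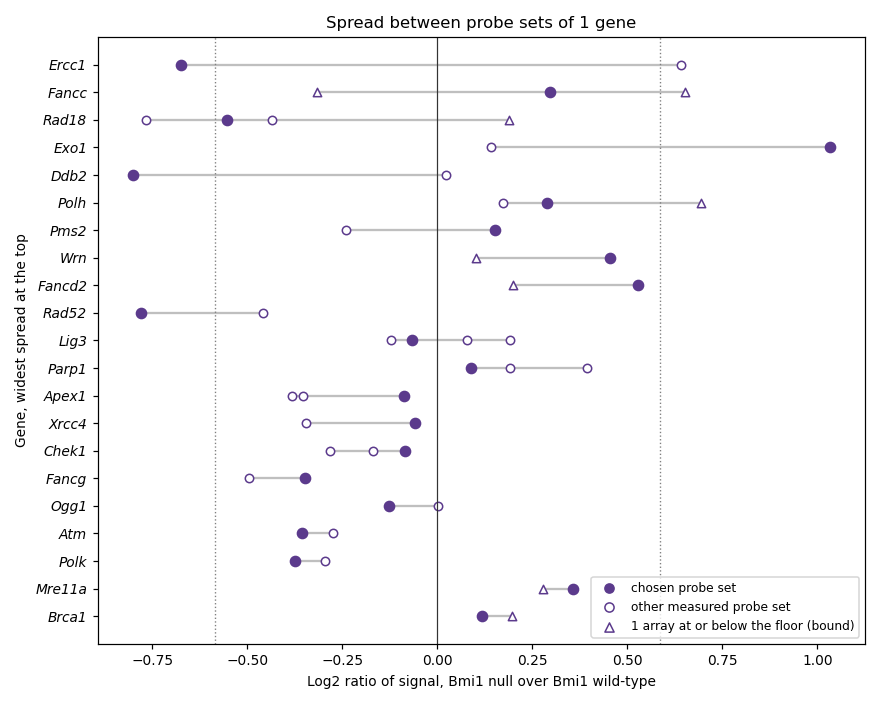
Log2 ratio, null over wild-type (x axis), of every measured probe set of the 21 members that have several (y axis, widest spread first), with filled circles for the chosen probe set, open circles for others, triangles where 1 array was at or below the floor, and dotted lines at 1.5-fold. Ercc1 spans both dotted lines, from −0.68 to 0.64, and the lowest rows, such as Brca1 and Mre11a, are tight. In these 2 genes the other ratio is a bound, with the wild-type signal below the floor.

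Members whose transcription is known to peak around the start of S phase were described apart from the rest. The members and lists were chosen with earlier results of these data known, so the contrast is a description only. There were 11 such genes (Brca1, Brca2, Bard1, Rad54l, Exo1, Blm, Chek1, Fancd2, Fanca, Msh6 and Ung), of which 10 were measured. Their median log2 ratio was 0.34, 7 of the 10 were above 0 (beside 50.6% of all measured genes), and 3 passed 1.5-fold upward (Ung, Exo1 and Msh6, beside 12.5%) and 0 downward (beside 12%). The other 39 measured members had a median of 0.041, and held Chek2 and all 3 members that passed 1.5-fold downward. The S phase genes were not uniform, since Chek1, Fanca and Rad54l had log2 ratios of −0.085, −0.012 and −0.011. Their median of 0.34 fell in a gap between Blm (0.16) and Fancd2 (0.53). The S phase median was 0.16 without a floor, 0.11 with a pseudocount (both over all 11 genes) and 0.16 without suffixed probe sets (over 7).

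A list of 20 proliferation genes, also chosen with earlier results of these data known, is given beside the members. Of 19 measured, 5 passed 2-fold upward in null cells (beside 5.73% of all measured genes) and 0 downward (beside 5.16%). The median log2 ratio was 0.77, and 18 were above 0, beside 50.6%. The thymidine kinase Tk1 read 157 and 562 (3.59-fold higher), the cyclin Ccne1 253 and 645 (2.55-fold) and the division marker Mki67 308 and 742 (2.41-fold). The lowest ratios were those of the clamp Pcna (5236 and 5013), the reductase subunit Rrm1 (2014 and 2173) and the helicase subunit Mcm7 (3597 and 3961). The part of cell cycle distribution in the values of the repair genes was not tested, and in bulk RNA more cells in S phase and more transcript per cell cannot be told apart.

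**Figure D4:**
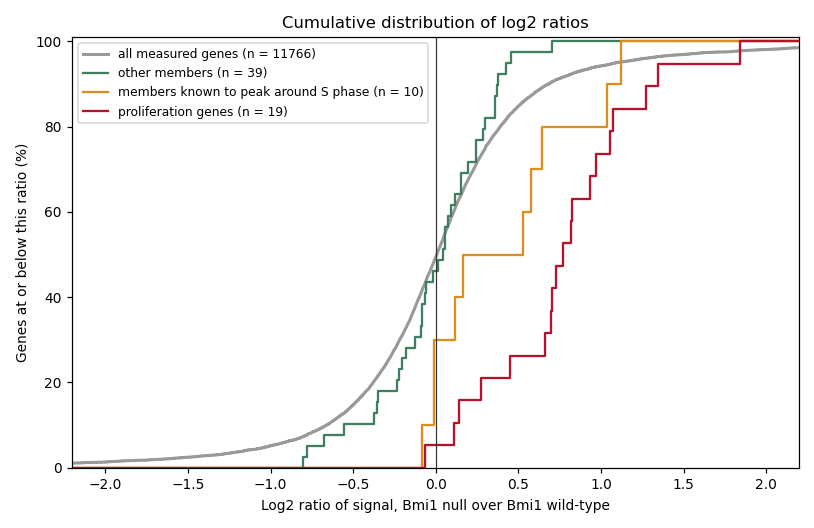
Cumulative share of genes (y axis, %) at or below each log2 ratio, null over wild-type (x axis), for all 11766 measured genes (grey), the 10 measured members known to peak around S phase (orange), the other 39 members (green) and 19 proliferation genes (red). The green curve crosses 50% close to 0 and is steeper than the grey one, the orange curve lies to its right, and the red curve lies farthest right.

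Repair genes outside the list of 55 were described in the same way. Of 81 further genes with textbook roles in the same pathways, 66 were measured, with a median log2 ratio of 0.055. In null cells 2 of them (3.03%, beside 5.73% of all genes) passed 2-fold upward and 1 (1.52%, beside 5.16%) downward. At 1.5-fold there were 10 (15.2%, beside 12.5%) and 2 (3.03%, beside 12%). Rpa1, the large subunit that coats single-stranded DNA, read 3303 and 6739 (2.04-fold higher), and its other probe set 1600 and 3231 (2.02-fold). Neil3, a glycosylase of dividing cells, read 93.2 and 221, at least 2.21-fold higher. Ercc8, which acts in repair of transcribed strands, read 317 and 152, 2.08-fold lower, but 217 and 206 at its other measured probe set. By pathway, the median log2 ratios of these further genes were 0.30 for end joining, 0.26 for damage kinases and their cofactors, 0.20 for mismatch repair, 0.12 for recombination, 0.11 for Fanconi genes and 0.047 for sensors. They were 0.012 for direct reversal, −0.029 for base excision and −0.056 for nucleotide excision repair. The further translesion genes had a median of 0.064, beside the −0.38 of the 3 translesion members. Of these further genes 4 of 5 were above 0, beside 50.6% of all measured genes.

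Promoters were read for the short word to which E2F factors bind, since E2F drives transcription at the start of S phase. RefSeq promoters of build GRCm38.p6, covering 250 bases before to 50 after the start, were held for 42 members and missing for Rad50, Nbn, H2afx, Rbbp8, Exo1, Wrn, Xrcc2, Rad54b, Prkdc, Fancd2, Xpc, Ddb2 and Ercc3. The words searched on both strands were TTTGGCGC, TTTCCCGC, TTTCGCGC and TTTGCCGC, which can overlap each other where they lie on opposite strands. At least 1 was found in 9 of the 42 (21.4%), against 3.29% of 17491 protein-coding genes counted in the same way, with a match in any of their promoters. Per promoter, the shares were 20.8% of the 48 of the members, 2.85% of 21262 protein-coding ones and 2.26% of all 32851. Of 5011 protein-coding genes with a promoter whose GC content lay between the quartiles of the members (56.3% to 64.4%), 4.39% had a word in such a promoter. A CCAAT box was found in 21 members (50%), against 42.3% of protein-coding genes.

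The 9 members with an E2F word were Chek2, Mdc1, Bard1, Brca2, Rad51c, Xrcc6, Fancg, Msh3 and Msh6. Only Bard1, Brca2 and Msh6 among them belonged to the S phase genes above. The S phase genes Brca1, Rad54l, Blm, Chek1, Fanca and Ung had a promoter but no word in it. Of the 7 measured members with a word, 4 (Chek2, Msh6, Brca2 and Mdc1) had higher signal in null cells, beside 50.6% of all measured genes. Signal was lower for Fancg, Msh3 and Xrcc6. The median log2 ratio of 0.43 was that of Mdc1 alone, and the next lower ratio was −0.20 (Xrcc6). The other 32 measured members with a promoter had a median of 0.015, and 16 of them were above 0, beside 50.6% of all measured genes. Ung, the member with the highest ratio, had no such word in this window. The promoters of the 3 genes with a word and the highest ratios, of Fancg as one with a word and lower signal, and of Ung are shown 5′ to 3′ in the direction of transcription, with the word or its reverse complement in capitals. They lie at chr5:110839733-110840032, plus strand (Chek2), chr17:87974800-87975099, plus strand (Msh6), chr5:150522371-150522670, plus strand (Brca2), chr4:43010252-43010551, minus strand (Fancg) and chr5:114130185-114130484, plus strand (Ung).
Chek2: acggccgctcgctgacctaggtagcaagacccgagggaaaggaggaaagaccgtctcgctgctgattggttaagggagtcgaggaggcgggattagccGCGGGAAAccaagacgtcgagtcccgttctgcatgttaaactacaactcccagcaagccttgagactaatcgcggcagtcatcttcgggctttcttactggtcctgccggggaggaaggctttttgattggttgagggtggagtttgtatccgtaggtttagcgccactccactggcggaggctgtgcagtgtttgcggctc
Msh6: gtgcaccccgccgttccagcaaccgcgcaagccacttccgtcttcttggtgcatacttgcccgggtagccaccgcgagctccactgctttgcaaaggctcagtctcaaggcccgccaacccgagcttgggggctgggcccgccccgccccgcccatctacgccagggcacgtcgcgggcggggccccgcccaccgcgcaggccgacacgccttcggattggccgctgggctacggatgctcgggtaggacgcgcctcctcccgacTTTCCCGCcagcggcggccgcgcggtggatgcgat
Brca2: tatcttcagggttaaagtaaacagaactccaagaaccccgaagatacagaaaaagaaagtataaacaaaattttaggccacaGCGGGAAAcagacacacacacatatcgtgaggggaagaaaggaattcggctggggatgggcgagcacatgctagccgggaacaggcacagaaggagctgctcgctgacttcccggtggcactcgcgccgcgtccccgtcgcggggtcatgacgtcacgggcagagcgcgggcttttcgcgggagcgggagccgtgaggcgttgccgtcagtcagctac
Fancg: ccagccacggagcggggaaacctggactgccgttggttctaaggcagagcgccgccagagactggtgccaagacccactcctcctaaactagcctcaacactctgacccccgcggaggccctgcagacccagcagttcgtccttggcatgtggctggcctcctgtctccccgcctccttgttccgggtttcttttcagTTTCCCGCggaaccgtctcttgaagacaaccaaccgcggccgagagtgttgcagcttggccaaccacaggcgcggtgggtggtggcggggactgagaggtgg
Ung: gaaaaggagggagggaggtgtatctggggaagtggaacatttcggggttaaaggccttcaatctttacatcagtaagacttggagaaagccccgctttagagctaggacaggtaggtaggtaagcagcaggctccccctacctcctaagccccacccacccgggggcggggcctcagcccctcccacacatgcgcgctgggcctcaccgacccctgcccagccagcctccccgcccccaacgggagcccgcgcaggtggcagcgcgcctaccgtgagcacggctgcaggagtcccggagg
Read along the transcribed direction, the first capital lay 152 bases before the start in Chek2, 168 before in Brca2, 52 before in Fancg and 15 after it in Msh6. In Msh3 a pair of overlapping words on opposite strands lay 202 and 198 bases before the start. A match is a run of letters, and binding was not measured.

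The study asked how H2A ubiquitylation that depends on Bmi1 relates to transcription, and it listed promoters with a peak of this mark. Of the 53 members on the array, 2 (3.77%) are on that list, Fancl and Xpa, beside 564 of all 18195 genes (3.10%). Both were above equality in null cells, Fancl 1.28-fold and Xpa 1.18-fold, and neither reached 1.5-fold. Their log2 ratios of 0.36 and 0.24 stand beside an SD of 0.29 between probe sets, and each gene had 1 measured probe set.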

How the data were processed

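Expression was measured in TBX2-immortalised MEFs of 2 genotypes, with 1 Affymetrix Mouse Genome 430 2.0 array for each. The authors amplified and biotinylated total RNA and derived 1 intensity per probe set with MAS5, per the submitters' processing notes; the deposited intensities were linear and had been scaled per array, since the mean after trimming 2% at each end was 500 on both. Such scaling hides a shift common to most genes. The number of arrays limits the precision.

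Of 45101 probe sets, 34958 were annotated to 1 gene, 932 to several and 9211 to none in the platform annotation; only the first were used. Members were matched through Entrez identifiers and RefSeq symbols (GRCm38.p6), H2afx through an older symbol. The probe set brightest on average (mean log2 signal) stood for each gene. Signals below 0.2 times the trimmed mean (100) were set to 100 before log2 was taken, and a gene at or below it on both arrays was called not measured. A fold against the floor is written as at least N-fold. Members, pathways and lists were chosen with earlier results of these data known. The rule for named members took those past 1.5-fold, the highest, lowest and brightest of each pathway, those with opposed probe sets, those not measured and those on the uH2A list; the other members are given as well, chosen after their values were seen. Python 3.11.15, pandas 2.3.3, numpy 2.4.6 and matplotlib 3.10.9 were used, and the functions were tested on simulated data. Alternatives were other floors, a pseudocount, quantile and median scaling, the mean of probe sets, and leaving out probe sets with suffixes _s_at, _x_at and _a_at. Coordinates are given only for the printed promoters (GRCm38.p6), because the array annotation names no build.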

Additional observations from a re-analysis of the deposited data

How the results depend on the processing

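With 1 array per group, no replicate could be left out and no test made. No alternative setting gave a member past 2-fold downward, beside 2.58% (pseudocount) to 8.69% (no floor) of all genes. The members' median lay between 0.042 and 0.10 in all settings. At least 2-fold higher were 2 members, but 1 with a high floor (0.4 times the trimmed mean), 0 with a pseudocount, 1 with the mean of probe sets and 1 without suffixed probe sets. Beside these, 5.73% of all measured genes were at least 2-fold higher in the main setting. The share was 5.34% with the high floor, 3.07% with a pseudocount, 5.15% with the mean of probe sets and 5.69% without suffixed probe sets. At least 1.5-fold higher were 4, but 2 with a pseudocount, and at least 1.5-fold lower 3, but 1 with a pseudocount, 1 with the mean of probe sets and 1 without suffixed probe sets. Of all genes, 12.5% were at least 1.5-fold higher in the main setting and 7.46% with a pseudocount. The shares at least 1.5-fold lower were 12.0%, 6.71% with a pseudocount, 11.6% with the mean of probe sets and 12.3% without suffixed ones. A pseudocount draws every ratio towards 0 by construction. The recombination median of 0.16 was 0.31 with the high floor, under which 6 genes were left, and the Fanconi median of 0.30 was 0.14 there, over 4 genes, and 0.21 with the mean of probe sets and with a pseudocount. The S phase median of 0.34 was 0.16 without a floor, 0.11 with a pseudocount and 0.16 without suffixed probe sets, and the proliferation median of 0.77 was 0.68 in the last of these. Further repair genes at least 2-fold higher numbered 4 of 71 without a floor and 4 of 70 with a low one (0.1 times that mean). They numbered 1 of 55 with the high one and 1 of 71 with a pseudocount. Of all genes, 12.9% were higher without a floor, 6.43% with the low one, 5.34% with the high one and 3.07% with a pseudocount. Those at least 2-fold lower numbered 3 without a floor and 0 with the high floor, a pseudocount, the mean of probe sets or without suffixed probe sets. Of all genes, 8.69% were lower without a floor, and 2.58% (pseudocount) to 5.34% (without suffixed probe sets) in the other settings named. With the mean of probe sets the log2 ratio of Exo1 was 0.59, that of Ddb2 −0.39 and that of Ercc1 −0.017. The translesion median stayed between −0.38 and −0.33. The mismatch median was −0.045 with the mean of probe sets, and the nucleotide excision median 0.012 there and 0.041 without suffixed probe sets. No named member past 1.5-fold changed direction in any setting that gave it a value. Little can be drawn from that, since a floor or a pseudocount cannot reverse the sign of a ratio. For Ung, Chek2 and Msh6, with 1 probe set each, the choice of probe sets could not either. Ercc1 came closest to a change, at −0.017 with the mean of probe sets. Ung and Ddb2 have no value without suffixed probe sets. Scaling moved the median of all genes to at most 0.046. Signals near the floor limit what can be read for Xrcc3, Exo1 and Fancd2.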
